A study of Homo sapiens with 10 samples.

Results

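The genes described here are PAPPA2, its paralog PAPPA, the stanniocalcins STC1 and STC2 and 6 insulin-like growth factor (IGF) binding proteins, IGFBP2, IGFBP3, IGFBP4, IGFBP5, IGFBP6 and IGFBP7, 10 of the 22626 rows of the deposited count table. The rows were taken by gene symbol, and the genes were chosen with results of the same comparison known. Their differences between the groups are therefore a description, with no p given, and a gene said to pass the limit below is only placed among all rows by the rule applied to every row. The cells were ARPE-19, an established human retinal pigment epithelium (RPE) cell line. One group grew for 48 h in control medium with 5.5 mM glucose and 32 mM mannitol (control group, n = 5), mannitol being a sugar alcohol that balances the osmotic load. The other group grew for 48 h in medium with 37.5 mM glucose (HG group, n = 5). The labels do not say whether the libraries of a group came from separate cultures, so the spread between them may be technical. The cells were maintained in medium with fetal bovine serum, per the labels. A lower level of an mRNA can come from fewer expressing cells or from less RNA per cell, which cannot be told apart in bulk RNA.

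In blood and tissue IGFs are bound by binding proteins, which hold them away from their receptor. PAPPA and PAPPA2 (the pappalysins) are secreted metalloproteinases that cut some of these binding proteins and so release the growth factor. PAPPA is known for cutting IGFBP4 and IGFBP5, and PAPPA2 for cutting IGFBP3 and IGFBP5. STC1 and STC2 are secreted glycoproteins that bind and inhibit the pappalysins. RNA levels, as measured here, say nothing of secretion, cleavage or free IGF.

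Total counts were between 33039260 and 45864176 in the control group and between 32448991 and 44400714 in the HG group. A count of 0, read as up to 3 counts, allows up to between 0.0654 and 0.0925 CPM (counts scaled to library size) depending on the library, and such limits cover counting error only. The libraries control 2 and HG_1 stood apart from the other 8, with a trend on gene GC content of 0.166 and 0.184 log2 units per 10 percentage points against -0.091 to -0.00407 in the others. Results were therefore also computed without this pair. Of 12 RPE markers, 5 reached 1 FPKM (fragments scaled to transcript length and library size) in some library, namely OTX2, MITF, RLBP1, BEST1 and PMEL. The 12 summed to between 53.2 and 173 FPKM in the control group and to between 48.2 and 52.2 FPKM in the HG group. The difference in the sum lay mostly in BEST1. BEST1 ranged from 0.237 to 120 FPKM over the 10 libraries, with means of 35.9 and 1.18 FPKM in the groups. OTX2 had control and HG means of 33.9 and 31.6 FPKM and MITF 11.4 and 10.0 FPKM. RLBP1 had 6.47 and 5.26 FPKM and PMEL 1.65 and 0.971 FPKM. RPE65 was at 0 in 9 libraries, and CRX and TTR were at 0 in all 10. The summed FPKM of the keratins KRT8 and KRT18 was between 1489 and 1811 in the control group and between 936 and 1247 in the HG group. The summed FPKM of the 3 leukocyte markers, nearly all of it CD68, was between 29.5 and 42.9 against between 55.7 and 74.9, with the defining marker PTPRC at no more than 0.0156 FPKM. Endothelial markers summed to no more than 0.0603 FPKM in any library, with CDH5 at 0. The 4 fibroblast and mesenchymal markers, mostly VIM, summed to between 2741 and 2891 FPKM and to between 2874 and 3214 FPKM, with COL1A2 at 0 in 9 libraries. VIM had means of 2761 and 3003 FPKM, while COL1A1 had 9.06 and 3.43 FPKM and PDGFRB 28.7 and 16.8 FPKM in the control and HG groups. The part of these differences in the results below was not tested.

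The stretches of 250 bases just before the RefSeq transcription start (GRCh38.p14) are shown for both proteases and for IGFBP5, the genes with the largest rise, the lowest level and the largest fall among those tested. Capitals mark matches to 8 short promoter motifs searched on both strands, and a match is a description and not a binding site.
PAPPA2, chr1:176462925-176463174, plus strand: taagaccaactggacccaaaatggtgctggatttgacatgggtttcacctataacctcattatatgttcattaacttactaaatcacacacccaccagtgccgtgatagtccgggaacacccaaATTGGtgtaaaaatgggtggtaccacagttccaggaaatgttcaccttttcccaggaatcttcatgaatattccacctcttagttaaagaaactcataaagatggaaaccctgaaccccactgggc
PAPPA, chr9:116153541-116153790, plus strand: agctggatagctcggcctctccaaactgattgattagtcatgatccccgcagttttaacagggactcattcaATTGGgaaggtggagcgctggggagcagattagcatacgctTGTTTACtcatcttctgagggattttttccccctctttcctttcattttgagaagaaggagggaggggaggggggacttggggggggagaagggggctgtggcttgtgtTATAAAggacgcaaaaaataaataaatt
IGFBP5, chr2:216695550-216695799, minus strand: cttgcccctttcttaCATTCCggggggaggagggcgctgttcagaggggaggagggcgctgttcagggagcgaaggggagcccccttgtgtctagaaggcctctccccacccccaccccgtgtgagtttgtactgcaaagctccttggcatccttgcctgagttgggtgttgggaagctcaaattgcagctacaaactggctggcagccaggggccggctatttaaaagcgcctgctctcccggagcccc
The PAPPA2 stretch held a single match, a CCAAT box (CCAAT) on the opposite strand beginning 126 bases before the start. Of 35116 RefSeq promoter windows of 300 bases, 34.6% held this motif. The PAPPA stretch held a TATA box (TATAAA, in 11.5% of windows) 28 bases before the start, a CCAAT box on the opposite strand at 178 bases and a FOXO element (GTAAACA, in 3.42%) on the opposite strand at 137 bases. The IGFBP5 stretch held the TEAD element GGAATG, found in 14% of windows, on the opposite strand at 235 bases. The promoter entries of STC2 and IGFBP3 are not printed, and held a CCAAT box (STC2) and GC boxes (GGGCGG, in 45% of windows, IGFBP3). No motif was matched in all 4 of the genes that differed between the groups. The other motifs searched were the E-box CACGTG (7.26% of windows), the AP-1 element TGANTCA (7.71%) and the C/EBP-ATF element TGATGNAA (3.62%), and none of them was found in any of the 10 windows that RefSeq gave for 8 of the 10 genes.

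PAPPA2 was 3.83-fold higher under high glucose, whereas IGFBP5 and IGFBP3, both among its known substrates, were lower, and STC2 was slightly higher. PAPPA, IGFBP2, IGFBP6 and IGFBP7 did not pass the limit, and STC1 and IGFBP4 had too few counts to be compared. Of 14936 rows tested, 2303 (15.4%) had an adjusted p under 0.05 (edgeR quasi-likelihood test with Benjamini-Hochberg adjustment), 1138 higher (7.62%) and 1165 lower (7.8%). Of the 10 genes, 8 passed the filter on low counts and 4 of these passed the limit, 2 higher (PAPPA2 and STC2) and 2 lower (IGFBP3 and IGFBP5). With a fold change above 1.5 as well, 551 rows remained (3.69%), among them PAPPA2, IGFBP3 and IGFBP5. The groups did not overlap in 2038 of the rows tested (13.6%), and in the same 4 genes. As the genes were chosen on this contrast, nothing is read from their count against that background. The median log2 fold change was -0.07 over the 8 genes and 0.00 over all rows tested.

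**Figure D1:**
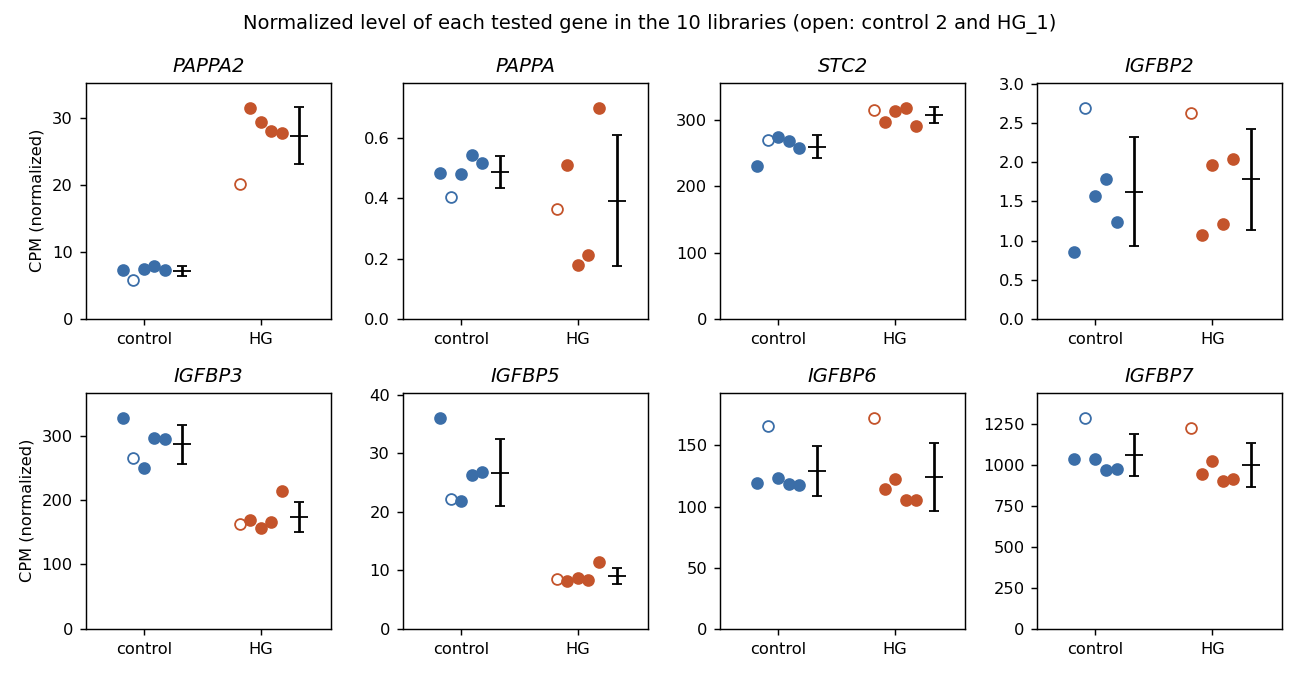
CPM (linear axes from 0, normalized by TMM) of the 8 tested genes in each of the 5 control and 5 HG libraries, with bars for mean and SD. Open points are control 2 and HG_1; the HG points lie wholly above the control points for PAPPA2 and STC2 and wholly below for IGFBP3 and IGFBP5.

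Among the proteases, PAPPA2 (ENSG00000116183, GENCODE 29 on GRCh38, chromosome 1, 176463171 to 176845605, plus strand) read 7.34, 5.85, 7.41, 7.93 and 7.28 CPM in control 1 to 5. In the deposited columns HG_1 to HG_5 it read 20.2, 31.6, 29.4, 28.1 and 27.8 CPM. The lowest HG value was thus above the highest control value, and the lowest value of each group was in control 2 and HG_1, the pair that stood apart. The means were 7.16 ± 0.775 and 27.4 ± 4.30 CPM (SD, n = 5 each), a 3.83-fold difference (log2 fold change 1.94, SE 0.126). By absolute log2 fold change the gene ranked 70 of 14936. The reads behind it numbered 242 to 324 in the control group and 778 to 1321 in the HG group. Without control 2 and HG_1 the log2 fold change was 1.97 (SE 0.0646). On log2(FPKM + 1), which understates low genes, the difference of PAPPA2 was 1.11. The only annotated gene that overlaps PAPPA2 is the pseudogene PTP4A1P7, which has no row in the table.

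PAPPA (ENSG00000182752, chromosome 9, 116153804 to 116402322, plus strand), the founding member of the pappalysins, was near the limit of detection. It read 0.485, 0.404, 0.481, 0.545 and 0.517 CPM in the control libraries and 0.364, 0.509, 0.178, 0.213 and 0.699 CPM in the HG libraries, and the groups overlapped. This rested on 16 to 23 and on 7 to 23 reads. The log2 fold change of -0.31 (SE 0.365) had a 95% interval from -1.12 to 0.49, and changes of either sign lie within it. The ratio of PAPPA2 to PAPPA in FPKM, which is per length, was between 16.6 and 17.4 in the control libraries and between 46.4 and 188 in the HG libraries. The PAPPA values in that ratio rest on no more than 23 reads in a library.

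Of the inhibitors, STC2 (ENSG00000113739, chromosome 5, 173314713 to 173329503, minus strand) read 231, 269, 274, 268 and 258 CPM in the control libraries. In the HG libraries it read 315, 297, 313, 318 and 291 CPM, all above the highest control library. The means were 260 ± 17.3 and 307 ± 12.0 CPM (SD, n = 5 each), 1.18-fold apart (log2 fold change 0.24, SE 0.0527). STC1 (ENSG00000159167, chromosome 8, 23841915 to 23854807, minus strand) was at 0 in 9 libraries and had 2 counts in HG_3. No fold is given for it, since every library was under the limit of 3 counts. Without control 2 and HG_1 the log2 fold change of STC2 was 0.24 (SE 0.0546). In FPKM, STC2 stood at 73.5 to 106 times PAPPA2 in the control libraries and at 21.8 to 35.7 times PAPPA2 in the HG libraries.

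Among the binding proteins, IGFBP5 (ENSG00000115461, chromosome 2, 216672105 to 216695525, minus strand), a binding protein that also attaches to extracellular matrix, differed the most. It read 36.1, 22.3, 21.9, 26.3 and 26.9 CPM in the control libraries. It read 8.47, 8.22, 8.74, 8.30 and 11.4 CPM in the HG libraries. Every HG value was below every control value. The means were 26.7 ± 5.73 and 9.02 ± 1.33 CPM (SD, n = 5 each), 2.96-fold lower under high glucose (log2 fold change -1.56, SE 0.149), from 870 to 1196 and 273 to 392 reads. The highest libraries were control 1 and HG_5, and neither control 2 nor HG_1 was at an end of its group. Without that pair the log2 fold change was -1.60 (SE 0.165), and on log2(FPKM + 1) the difference was -1.07.

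IGFBP3 (ENSG00000146674, chromosome 7, 45912245 to 45921874, minus strand), the main carrier of IGFs in blood, moved the same way by less. The control libraries read 327, 265, 249.9, 296 and 294 CPM, and the HG libraries 163, 169, 156, 166 and 214 CPM. The highest HG library, HG_5, stayed below the lowest control library. The means were 287 ± 30.1 and 174 ± 22.9 CPM (SD, n = 5 each), 1.65-fold lower (log2 fold change -0.72, SE 0.0963), and the log2 fold change was -0.73 (SE 0.108) without control 2 and HG_1. In both IGFBP3 and IGFBP5 the highest control library was control 1 and the highest HG library was HG_5. The ratio of IGFBP3 to IGFBP5 in FPKM was between 21.8 and 28.4 in the control libraries and between 43.0 and 49.3 in the HG libraries, so IGFBP5 was lower by more than IGFBP3 in each HG library.

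The remaining binding proteins overlapped between the groups. IGFBP7 (ENSG00000163453, chromosome 4, 57030773 to 57110385, minus strand), which binds IGFs only weakly, read 1035, 1289, 1040, 971 and 975 CPM in the control libraries and 1227, 943, 1026, 900.4 and 918 CPM in the HG libraries. IGFBP6 (ENSG00000167779, chromosome 12, 53097436 to 53102345, plus strand), which prefers IGF2, read 119, 166, 124, 118 and 118 CPM against 173, 114, 122, 106 and 106 CPM. In both genes control 2 and HG_1 were the highest of their group. The log2 fold changes were -0.08 (SE 0.102, 95% interval -0.31 to 0.14) for IGFBP7 and -0.06 (SE 0.147, 95% interval -0.38 to 0.27) for IGFBP6. Without control 2 and HG_1 they were -0.09 (SE 0.0457) and -0.10 (SE 0.0496), and neither passed the limit. After removal of the GC and transcript length trends within libraries, IGFBP7 passed it at -0.14 (SE 0.0472), in a fit where 27.9% of rows passed.

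IGFBP2 (ENSG00000115457, chromosome 2, 216632828 to 216664436, plus strand), a binding protein found widely in tissue fluids, read 0.849, 2.69, 1.56, 1.79 and 1.24 CPM in the control libraries and 2.62, 1.07, 1.96, 1.22 and 2.04 CPM in the HG libraries. Again control 2 and HG_1 were the highest of their groups, and the log2 fold change of 0.13 (SE 0.336) had a 95% interval from -0.61 to 0.87. IGFBP2 lies 7668 bases from IGFBP5 on the opposite strand, and unlike IGFBP5 it showed no difference beyond its spread. IGFBP2, IGFBP6 and IGFBP7, the genes highest in both libraries that stood apart, had a GC content of 57.1%, 64.1% and 52.1% in the annotation, the highest of the 8 tested. IGFBP4 (ENSG00000141753, chromosome 17, 40443461 to 40457731, plus strand), the best known substrate of PAPPA, is listed at 0 in all 10 libraries. Loci that the assembler built (MSTRG) took 1.34% to 1.65% of a library's counts, and whether any of them holds reads of IGFBP4 or STC1 was not tested. The 3′ end of IGFBP7 shares 270 exon bases with POLR2B on the opposite strand, and whether reads were counted by strand is not given in the sources used here. POLR2B itself did not pass the limit (log2 fold change 0.04, SE 0.0868, edgeR adjusted p = 0.808).

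**Figure D2:**
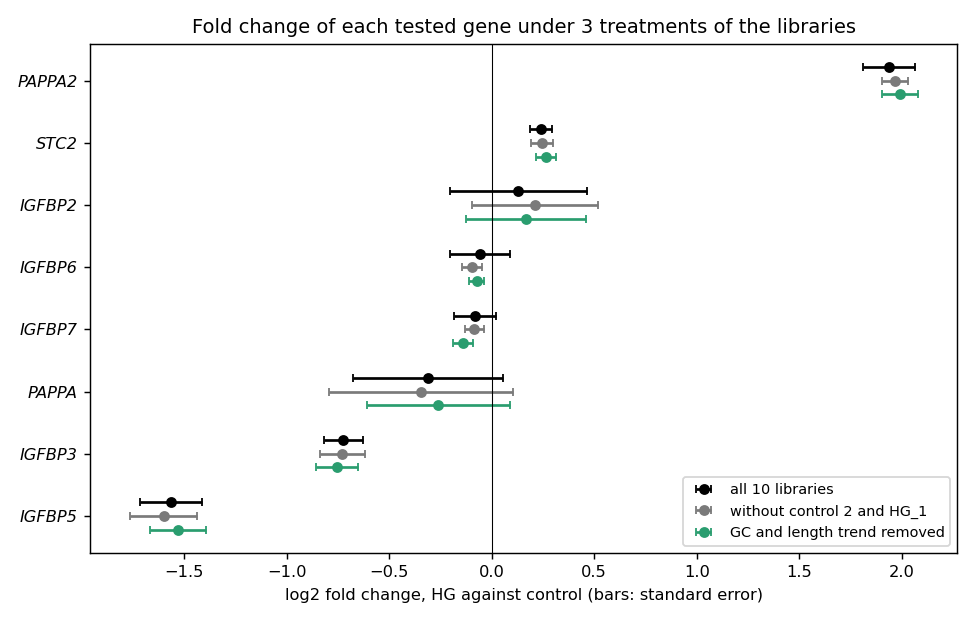
Log2 fold change of HG against control with its standard error for the 8 tested genes, with all 10 libraries (black), without control 2 and HG_1 (grey) and with the GC and length trend of each library removed (green). PAPPA2, STC2, IGFBP3 and IGFBP5 keep their place under all 3, while the bars of IGFBP6 and IGFBP7 shorten once the pair is left out.

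Levels of different genes were compared in FPKM. In the control group the order was IGFBP7 at 688 ± 73.9, IGFBP6 at 124 ± 17.3, IGFBP3 at 102 ± 11.4 and STC2 at 57.3 ± 3.71 FPKM (SD, n = 5). Far lower stood IGFBP5 at 3.95 ± 0.864, IGFBP2 at 1.05 ± 0.443, PAPPA2 at 0.681 ± 0.0811 and PAPPA at 0.0400 ± 0.00526 FPKM (SD, n = 5). The neighbours IGFBP6 and IGFBP3 changed order between libraries, with IGFBP6 the higher in 4 of 5, as did IGFBP2 and PAPPA2, with IGFBP2 the higher in 4 of 5. In the HG group IGFBP7 stayed first at 654 ± 72.4 and IGFBP6 was next at 120 ± 24.3, but STC2 at 68.1 ± 2.66 was now above IGFBP3 at 62.1 ± 8.51 FPKM (SD, n = 5). IGFBP3 exceeded STC2 in 5 of 5 control libraries and in 1 of 5 HG libraries. PAPPA2, at 2.64 ± 0.459 FPKM (SD, n = 5), exceeded both IGFBP5 at 1.34 ± 0.203 and IGFBP2 at 1.16 ± 0.398 FPKM in each of the HG libraries.

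The ratio of PAPPA2 to IGFBP5, a protease and a known substrate, reversed its order. It was 0.131, 0.169, 0.218, 0.194 and 0.174 in the control libraries and 1.54, 2.48, 2.18, 2.19 and 1.58 in the HG libraries. PAPPA2 was the lower of the pair in all 5 control libraries and the higher in all 5 HG libraries. IGFBP3 remained well above PAPPA2 throughout, at 126 to 168 times its FPKM in the control libraries and 19.8 to 30.1 times in the HG libraries.

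**Figure D3:**
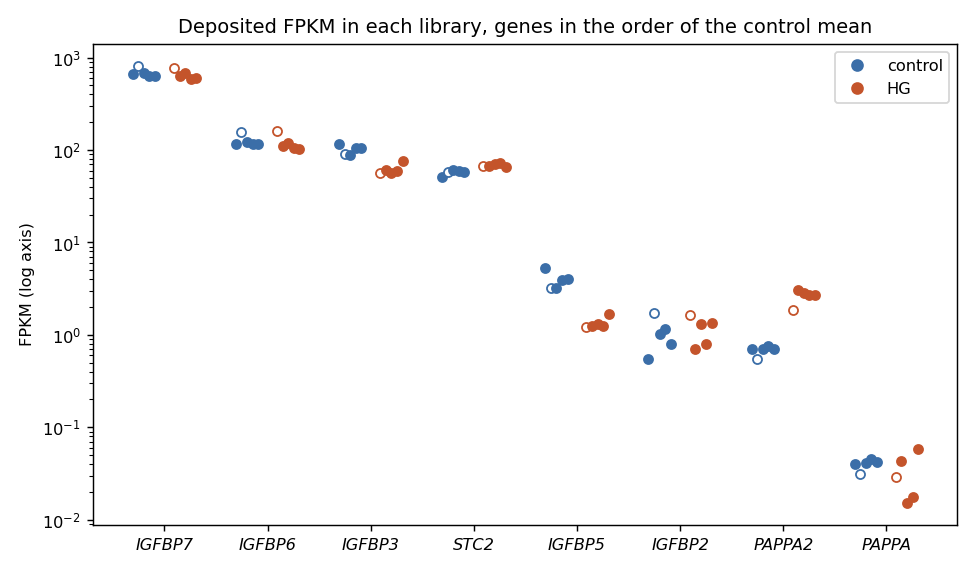
Deposited FPKM (log axis) of the 8 tested genes in the 5 control (blue) and 5 HG (orange) libraries, ordered by control mean; open points are control 2 and HG_1. PAPPA2 moves from below IGFBP5 in the control libraries to above it in the HG libraries, and IGFBP3 from above STC2 to about its level.

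As a share of the summed FPKM of the IGFBP genes listed, IGFBP7 made up 74.8% ± 1.33 in the control group and 78.0% ± 0.847 in the HG group (SD, n = 5 each), without overlap. The highest control share was 76.43% and the lowest HG share 76.72%. The FPKM of IGFBP7 itself was 688 in the control group and 654 in the HG group and overlapped, so its own level was not higher. In CPM, without scaling to length, the IGFBP7 shares of 70.4% ± 2.57 and 76.4% ± 1.87 overlapped. IGFBP6 made up 13.5% ± 0.673 and 14.2% ± 1.23, and IGFBP3 11.2% ± 1.82 and 7.52% ± 1.54, both with overlap. In CPM the shares were 8.53% ± 0.606 and 9.38% ± 0.948 for IGFBP6 and 19.2% ± 2.77 and 13.4% ± 2.52 for IGFBP3, both with overlap. The order of their mean shares thus depended on the unit. IGFBP5 was a small part, at 0.434% ± 0.109 and 0.162% ± 0.0341, without overlap (1.79% ± 0.417 and 0.696% ± 0.135 in CPM). The sum itself was 919 ± 85.0 and 839 ± 92.0 FPKM and overlapped. IGFBP7 was thus most of the summed IGFBP level in both groups.

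The rest of the IGF system was read from lists of 65 other genes, 48 of which passed the filter. Of these, 10 (20.8%, against 15.4% of all rows) passed the limit, 4 higher and 6 lower, and the median log2 fold change was -0.01. The fit without control 2 and HG_1 passed 18 of the 48 genes, against 27.1% of all rows in that fit. These genes are not among the 10 above, but the lists were written with earlier results of these data known.

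The ligands IGF1 and IGF2 had at most 5 and 6 counts in a library, and INS was at 0. Of 7 ligands and receptors, 3 were tested and 0 passed the limit in edgeR with all 10 libraries, against 15.4% of all rows, and 1 (IGF1R) had an unadjusted p under 0.05. The type 1 receptor IGF1R, which carries the growth signal, had a log2 fold change of -0.25 (SE 0.0913, edgeR adjusted p = 0.0898). It passed the limit with DESeq2 at -0.25 and, in edgeR, without control 2 at -0.30, without control 2 and HG_1 at -0.24 and with the GC and length trend removed at -0.18. IGF2R, which clears IGF2, was at 0.03 (SE 0.0709) and the insulin receptor INSR at 0.02 (SE 0.0591).

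Among 14 other carriers and relatives with an IGFBP-type N-terminal domain, 6 were tested and 4 passed the limit (66.7%, against 15.4% of all rows). CCN2, a matrix protein formerly called CTGF, fell from 386 ± 69.5 to 157 ± 10.2 CPM (SD, n = 5 each; log2 fold change -1.29, SE 0.108, edgeR adjusted p = 6.97e-05). Its relative CCN1 fell by less (-0.22, SE 0.0450, edgeR adjusted p = 0.00818), and CCN3 rose (0.33, SE 0.0730, edgeR adjusted p = 0.0122). HTRA1, a secreted serine protease that also cuts IGFBPs, rose (0.37, SE 0.0576, edgeR adjusted p = 0.00174). The 4 genes of this list that passed the limit thus moved in both directions. IGFBP1, which lies 18576 bases from IGFBP3, was at 0 in all 10 libraries.

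Of 19 other proteases known to cut IGFBPs, 16 were tested and 6 passed the limit (37.5%, against 15.4% of all rows), 3 higher and 3 lower. With the GC and length trend removed 10 of the 16 passed, against 27.9% of all rows in that fit. MMP1, a collagenase, rose from 10 to 27 reads in the control libraries to 60 to 106 in the HG libraries (log2 fold change 2.22, SE 0.246, edgeR adjusted p = 0.000265). MMP3, stromelysin, rose by 1.77 (SE 0.184, edgeR adjusted p = 0.000182), and HTRA1, counted in both lists, rose as above. On the log2(FPKM + 1) scale, which understates low genes, the differences of MMP1 and MMP3 were 0.77 and 0.99. PLAU, the urokinase plasminogen activator, fell (-0.75, SE 0.0814, edgeR adjusted p = 0.000234), as did ADAM12 (-0.45, SE 0.0791, edgeR adjusted p = 0.00356) and the gelatinase MMP2 (-0.36, SE 0.0542, edgeR adjusted p = 0.0015). The IGFBP proteases other than PAPPA2 thus showed no common direction. PRG2, which binds and inhibits PAPPA, was at 0 in all 10 libraries.

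In receptor proximal signalling (25 genes, 24 tested) PHLPP1, a phosphatase of AKT, passed the limit and was lower (-0.32, SE 0.0686, edgeR adjusted p = 0.00947). This is 4.17% of the genes tested, against 15.4% of all rows. On log2(FPKM + 0.1) PHLPP1 missed the limit at -0.31. Without control 2 and HG_1, 7 of the 24 passed, against 27.1% of all rows, among them IRS2 at 0.38, FOXO3 at 0.34 and GRB10 at 0.10 higher and PIK3R2 at -0.13, AKT1 at -0.11 and PHLPP1 at -0.31 lower. With HG_1 alone left out 5 of the 24 passed (against 19.9% of all rows), and with control 2 alone left out 1 passed (against 16.6%). With all libraries kept and the GC and length trend removed, 5 passed, against 27.9%.

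**Figure D4:**
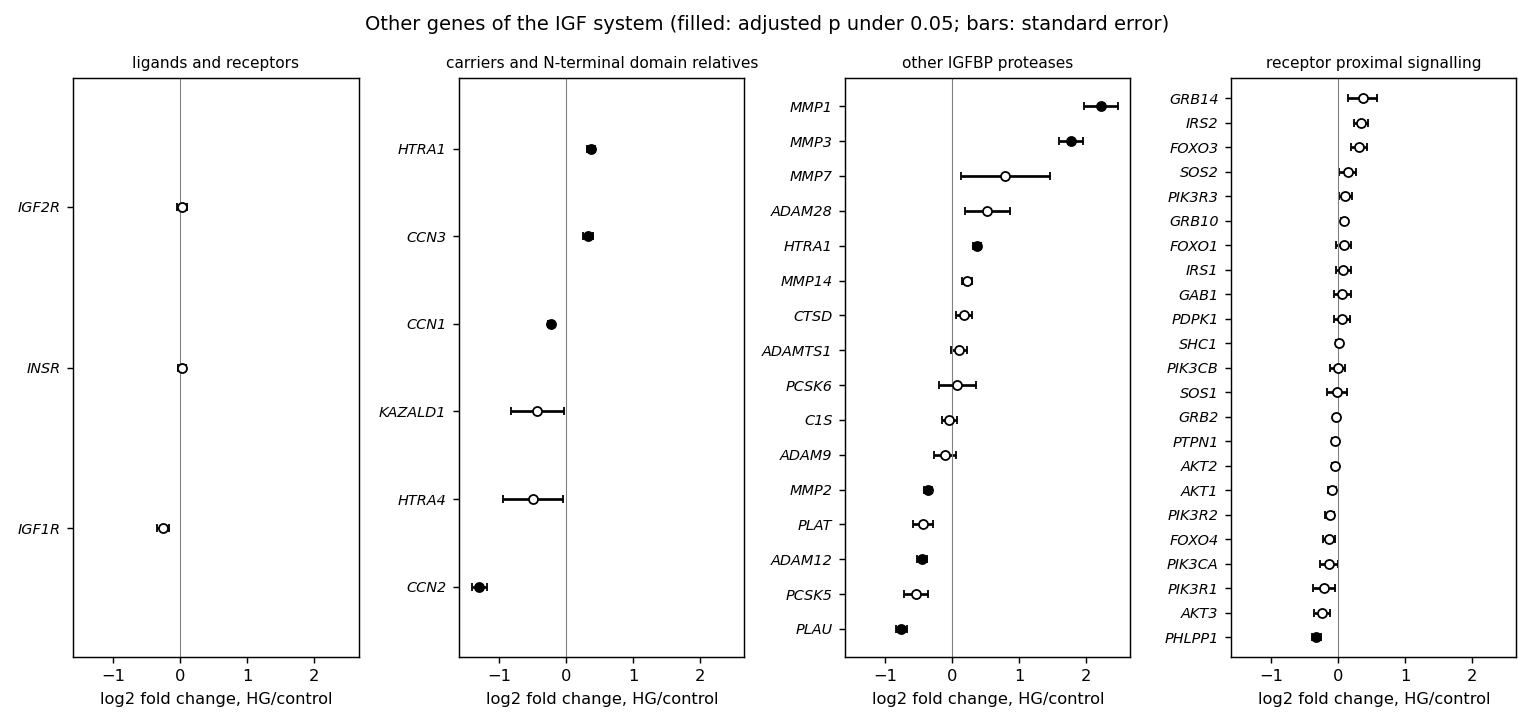
Log2 fold change of HG against control, with its standard error, for the tested genes reported here of 4 lists of the IGF system; filled points had an edgeR adjusted p under 0.05. MMP1 and MMP3 lie farthest to the right and CCN2 farthest to the left, and the ligand and receptor panel has no filled point.

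By the distance between profiles (root mean square difference of log2 CPM minus the control mean, over the 10 libraries and 12358 candidate genes), the genes most like PAPPA2 were ASNS at 0.252, MMP3 at 0.260, MMP1 at 0.381, CPEB1 at 0.388 and IL13RA2 at 0.452. ASNS, asparagine synthetase, read 23.2 ± 0.874 CPM in the control group and 76.0 ± 3.57 CPM in the HG group (SD, n = 5 each). The other 4 were at low levels, with HG means between 2.33 and 4.52 CPM. MMP1 and MMP3 also stand in the list of IGFBP proteases. The measure finds genes with a similar fold change and is given as a description.

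**Figure D5:**
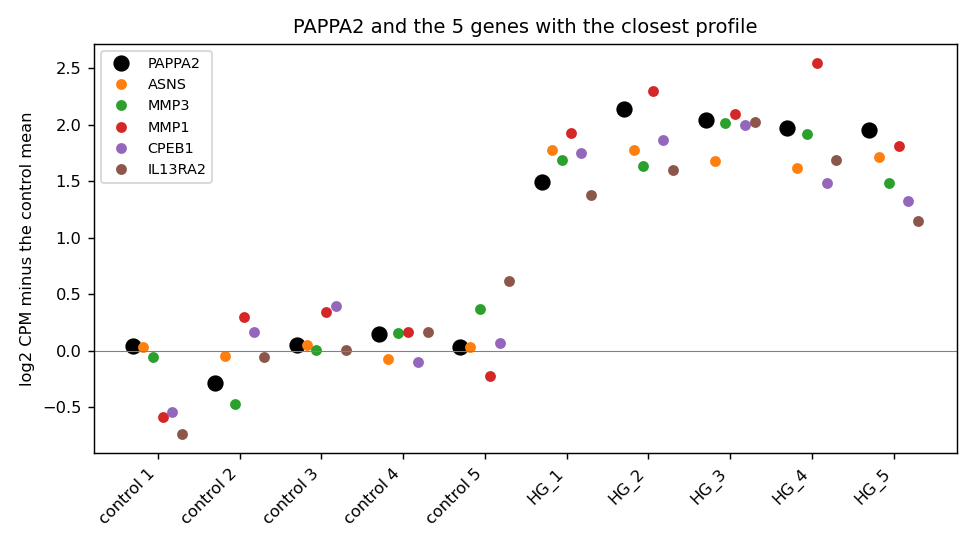
Log2 CPM minus the control mean for PAPPA2 (large black points) and the 5 genes with the smallest distance from it, in the 5 control and 5 HG libraries. All 6 genes lie between 1.15 and 2.55 in the HG libraries, and ASNS varies least.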

How the data were processed

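Total RNA of 10 ARPE-19 libraries (5 control, 5 HG) was sequenced. Per the labels, the authors used the VAHTS Universal V6 kit, and the submitters' processing notes name fastp 0.20.1, HISAT2 2.2.1 and GRCh38. The counting program and its strand setting are not given in the sources used here. The authors deposited whole-number read counts per gene, without normalization, and FPKM values of the same libraries, scaled by them to transcript length and library size. Each deposited table had 22626 rows, of which 20232 matched GENCODE 29, the source of the gene positions.

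Counts were tested with R 4.3.3 and edgeR 4.0.16 (filterByExpr, TMM, quasi-likelihood test without covariates, Benjamini-Hochberg over 14936 rows, limit 0.05). The SE of an edgeR log2 fold change was taken as its absolute value over the square root of the test's F statistic. The 95% intervals were built on that SE. FPKM values gave ratios, shares and the comparison of levels. Alternatives were DESeq2 1.42.0, limma 3.58.1 on log2 FPKM, other scalings and filters, and libraries left out. A lowess correction (span 0.3) of GC and length trends, on the 13538 rows with both values, was added after seeing the data. The edgeR, DESeq2 and limma fits and the GC correction were tested on simulated counts, with limma on counts scaled to library size.

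The control columns carry the numbers of the labels. The HG columns are numbered whereas the labels use letters, so they were used as members of the group only. The 10 genes and all lists were chosen with earlier results of these data known. All 10 are described, the other lists are counted whole, and genes with an adjusted p under 0.05 and the tested receptors are named. In the fit without control 2 and HG_1, signalling genes were named after their values were seen. Likeness to PAPPA2 used tested genes with a symbol and a mean of at least 1 CPM. Within a group, replicate pairs differed by a chi-square of 13.8 to 78.5 per gene, more than counting noise gives, so none was a library deposited again. This does not tell separate cultures from repeat preparations. List totals include genes that are not reported by name here.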

Additional observations from a re-analysis of the deposited data

Results flagged for a closer look

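In 46 groups of 5 values (the genes named from the fits in each group, total counts and summed IGFBP FPKM), 9 values lay far from the others of their group. The gap to the nearest value exceeded 0.71 of the group's range, which chance gives in about 1 in 20 groups, or about 2.3 of 46. That figure takes the groups as independent. They are not, since they share the same libraries and IGFBP7 is most of the summed IGFBP level. In HG_5, IGFBP3 read 213.8 CPM against 156.4 to 168.5 in the other HG libraries, and IGFBP5 read 11.37 CPM against 8.217 to 8.737, both on the side of the control group. In control 2, IGFBP6 read 165.9 CPM against 117.8 to 123.7, IGFBP7 read 1289 CPM against 970.8 to 1040, and the summed IGFBP level was 1067 FPKM against 861.4 to 910.0. In HG_1, IGFBP6 read 172.6 CPM against 105.7 to 122.4 and PHLPP1 read 74.56 CPM against 88.24 to 92.74. In control 1, CCN2 read 504.7 CPM against 336.9 to 384.7 and CCN3 read 140.5 CPM against 177.8 to 186.0. Of the 9 values, 5 were in control 2 and HG_1, the libraries whose trend on GC content differed from that of the other 8. The part of that trend in these values was not tested.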

How the results depend on the processing

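In all 20 alternatives PAPPA2, STC2, IGFBP3 and IGFBP5 kept their direction and side of the limit, which is no independent support since they were chosen on this contrast. The log2 fold change of PAPPA2 was between 1.875 and 2.034 with 1 library left out and between 1.106, on log2(FPKM + 1), and 1.992 otherwise. The number of rows past the limit was between 1648 (without HG_3) and 2993 (without HG_1) with 1 library left out, 4035 without control 2 and HG_1 and 3780 with the GC and length correction. DESeq2 called 3086. The other IGF system genes past the limit numbered 10 to 14 of 48 with 1 library left out (20.8% to 29.2%, against 10.9% to 19.9% of all rows). Without that pair they numbered 18 of 48 (37.5%, against 27.1%) and with the correction 19 of 48 (39.6%, against 27.9%). They numbered 15 of 49 with DESeq2 (30.6%, against 19.8%) and 9 of 59 on log2(FPKM + 0.1) (15.3%, against 9.66%). Among them IGF1R passed with DESeq2 (-0.2534), without control 2 (-0.3047), without the pair (-0.2387) and with the correction (-0.18), and PHLPP1 missed the limit on log2(FPKM + 0.1) at -0.3117. With 1 library left out, 4 differences that were not past the limit changed sign. IGFBP2 ranged from -0.04743 without HG_1 to 0.3909 without control 2 and was -0.03048 without control 1. IGFBP6 ranged from -0.2004 without HG_1 to 0.05198 without control 2, IGF2R from -0.01713 to 0.07742 and INSR from -0.01067 (without control 1) to 0.04641. PAPPA (-0.6128 to -0.1211), IGFBP7 (-0.1624 to -0.002779) and IGF1R (-0.3047 to -0.1826) did not change sign. With CPM in place of FPKM, which removes the scaling to length, the HG minus control difference in IGFBP share was -5.766 percentage points for IGFBP3, -1.091 for IGFBP5 and 5.978 for IGFBP7, and the groups then overlapped for IGFBP7. PAPPA gave no value under 10 counts in every library or a mean of at least 1 FPKM, and MMP1 none under the latter. PAPPA was measured on 7 to 23 reads, which limits its precision. No paired analysis was possible because the HG columns carry numbers that match no label. The cause of these shifts was not tested.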
